A study of Arabidopsis thaliana with 30 samples.

Results

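The oxygen-sensing genes of Arabidopsis thaliana described here are 9 of the 32833 genes counted in each table. They are the group VII ERF transcription factor genes RAP2.12 (AT1G53910), RAP2.2 (AT3G14230), RAP2.3 (AT3G16770), HRE1 (AT1G72360) and HRE2 (AT2G47520), the plant cysteine oxidase genes PCO1 (AT5G15120) and PCO2 (AT5G39890), the ERF inhibitor gene HRA1 (AT3G10040) and the ubiquitin ligase gene PRT6 (AT5G02310). They were chosen by name, and their rows were read in all 30 libraries. Poly-A mRNA of whole seedlings, labelled 6 days old, was sequenced after mock treatment or submergence. The extract protocol also speaks of germinating seeds, and neither the length of the submergence nor the light is given in the sources used here.

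The libraries form 2 sets with a table each. In the bak set, 12 libraries cover wild-type Col and the double mutant bak1-3 bkk1-1, a T-DNA insertion line of the receptor kinase genes BAK1 and BKK1. In the tcp set, 18 libraries cover Col, the CRISPR line tcp21 of a class I TCP transcription factor gene and the CRISPR line tcpq, whose mutated genes the labels do not list. Each genotype has 3 mock and 3 submergence libraries, which makes 10 groups. Each set has its own Col groups and no level or test was taken across sets. The labels do not say that replicates came from separate cultures or how many independent lines were used, so every p-value measures the spread between these libraries, which may be technical.

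Group VII ERFs are the transcription factors through which plant cells read oxygen. A cysteine lies next to their start methionine. Methionine aminopeptidases expose it, the PCO enzymes oxidise it with molecular oxygen, arginyl transferases add an arginine, and PRT6 then marks the protein for the proteasome. When oxygen runs low the proteins persist and switch on genes of anaerobic metabolism, and PCO1, PCO2 and HRA1 are among their known targets, which closes a feedback loop. The counts measured mRNA, not the stability of these proteins.

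The coding starts are printed because the second codon carries the oxygen-sensing residue. Each line gives the first 30 coding bases from the genome of the RefSeq annotation (build TAIR10.1), 5′ to 3′ on the coding strand, with the second codon in capitals:

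RAP2.12 (chr1:20135242-20135271, plus strand): atgTGTggaggagctataatatccgatttc
RAP2.2 (chr3:4738971-4739000, minus strand): atgTGTggaggagctataatctccgatttc
RAP2.3 (chr3:5705784-5705813, plus strand): atgTGTggcggtgctattatttccgattat
HRE1 (chr1:27241904-27241933, plus strand): atgTGCggaggagctgtaatttccgattac
HRE2 (chr2:19503461-19503490, minus strand): atgTGTgggggagctatcatttctgatttc
PCO1 (chr5:4898814-4898843, plus strand): atgGGGtttgagatgaaaccagagaaagag
PRT6 (chr5:474279-474308, plus strand): atgGAGaccaactcttctctttttggttta

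In all 5 ERF genes the second codon was TGT or TGC, both of which encode cysteine. For HRE1 this held in 2 of the 3 annotated coding models. The second codons of PCO1 (GGG), PCO2 (GGA), HRA1 (GAA) and PRT6 (GAG) encode other residues.

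Library totals ran from 19662531 to 27417759 counts for bak and from 17466180 to 33957452 for tcp. Levels are in CPM, counts scaled to a common library size. The mutated genes were lower in the mutants: BAK1 (AT4G33430) averaged 28.0 CPM in bak1-3 bkk1-1 against 78.0 in Col of the bak set in mock, and TCP21 (AT5G08330, listed as TCP11 in the RefSeq gene table) averaged 29.9 CPM in tcp21 against 92.9 in Col of the tcp set. Transcript remained in each mutant, and in tcpq AT5G08330 stood at 22.1 CPM in mock and at 60.7 CPM under submergence, against 92.9 and 78.2 in Col. In the tcp set, the genotype field of Col mock library 1 gives bak1-3 bkk1-1, while title and strain say Col. BAK1 was at 78.7 CPM in this library, against 75.3 and 82.2 in the other Col mock libraries of the set. BKK1 was at 49.2 CPM in it, against 35.6 and 44.2. Because of the conflicting label, the calls that change without this library are given where they arise. Shoot and root markers were above 0 in every library. The summed level of 3 shoot markers was 33600 to 40000 CPM in the mock libraries of the bak set and 14100 to 23000 CPM in the submerged ones. In the tcp set it was 21200 to 25200 CPM in tcpq mock and 28800 to 47100 CPM in the other libraries. The sum of 3 root markers was 2820 to 3450 CPM in mock and 1470 to 1850 CPM under submergence in the bak set. In the tcp set it was 2520 to 2550 CPM in tcpq mock, 2090 to 2360 CPM in Col mock and 1910 to 2960 CPM over all libraries. Seed storage genes summed to between 109 and 194 CPM in submerged Col of the bak set, to up to 232 CPM in Col mock of that set and to at most 10.3 CPM in every other group. In whole seedlings, fewer cells of a type and less RNA per cell cannot be told apart.

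RAP2.12, RAP2.2 and RAP2.3, known as constitutive factors though their levels varied here, made up nearly all of the ERF transcripts. Per kb of exon, which allows levels to be compared between genes, RAP2.2 averaged 113 CPM per kb over the bak set, RAP2.3 108 and RAP2.12 79.6. Over the tcp set the order was RAP2.3 at 124 CPM per kb, RAP2.2 at 87.2 and RAP2.12 at 76.9. HRE1 was much rarer, at 11.1 and 7.34 CPM per kb in these sets.

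HRE2, the other hypoxia-inducible member, had between 0 and 11 counts in each of the 30 libraries. Its highest level was 0.463 CPM. It failed the low-count filter in each table and was not tested, so 8 of the 9 members have a test. PCO1, PCO2 and HRA1 also lay low, with group means between 0.961 and 8.91 CPM, while PRT6 lay between 94.3 and 136 CPM in every group.

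In Col of the bak set the 4 measurable ERF genes rose under submergence while both PCO genes fell. HRA1 fell with overlapping libraries and a call near the threshold (edgeR adjusted p = 0.0464), and PRT6 was not called. RAP2.3, also known as an ethylene-responsive element binding protein, stood at 52.5, 58.1 and 67.5 CPM in the mock libraries and at 254, 239.5 and 235 CPM in the submerged ones. The lowest submerged library was thus more than 3 times the highest mock one. The rise was 4.09-fold (log2 fold change 2.03 ± 0.13 SE, edgeR quasi-likelihood adjusted p = 7.58e-10).

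RAP2.2, a main activator of fermentation genes, was at 108, 110.5 and 115 CPM in mock and at 317, 322 and 276 CPM under submergence. The groups did not overlap. Its log2 fold change was 1.45 ± 0.09 (edgeR adjusted p = 8.38e-10). RAP2.12, which is held at the plasma membrane by acyl-CoA-binding proteins in normal air, was at 116, 108 and 102 CPM in mock and at 191, 234 and 197 CPM under submergence. It rose by the least of these factors, 1.91-fold (0.94 ± 0.09, edgeR adjusted p = 2.13e-07).

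HRE1, a factor that is itself induced by low oxygen, was at 4.27, 4.60 and 6.10 CPM in mock and at 21.9, 32.1 and 14.3 CPM under submergence. The submerged libraries spread widely but lay above every mock library (2.19 ± 0.26, edgeR adjusted p = 5.44e-06). HRE1 overlaps the ribosomal protein gene P40 (AT1G72370) on the opposite strand by 124 of its 1273 exon bases, and the strand setting of the counting is not given, so HRE1 counts are uncertain. P40 moved the other way, from 344 to 229 CPM (fell by 0.59 on the log2 scale).

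Of the 8 members tested in Col of the bak set, 7 were called at an adjusted p under 0.05, 4 higher and 3 lower. Of all 20666 genes tested, 49.4% were called, 5245 higher and 4973 lower, so about as many genes were called as were not. The members' median log2 fold change was 0.44, and that of all genes was 0.01.

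In bak1-3 bkk1-1 the same 4 ERF genes rose. RAP2.3 went from 55.7, 58.5 and 53.5 CPM to 158, 234 and 222 CPM (log2 fold change 1.87 ± 0.13), and the first submerged library was the lowest of its group. RAP2.2 rose by 1.42 ± 0.09, RAP2.12 by 0.92 ± 0.09 and HRE1 by 1.61 ± 0.25, with edgeR adjusted p-values of 1e-09, 2.31e-07 and 7.66e-05. Here 7 of 8 members were called, 5 higher and 2 lower, against 52.7% of all genes.

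The mutant and Col did not differ detectably in any member. In mock, 0 of 8 members were called by edgeR and 0 by DESeq2, where edgeR called 0.856% of all genes. At an unadjusted edgeR p under 0.05 there were 0 members, against 1767 of all 20666 genes. Under submergence 0 were called by edgeR and 0 by DESeq2, where edgeR called 1.38% of all genes. At an unadjusted edgeR p under 0.05 there was 1 member, against 3012 of all 20666 genes. For the difference between both submergence responses 0 were called by either tool, where edgeR called 0.0387% of all genes. At an unadjusted edgeR p under 0.05 there was again 1 member, against 1536 of all 20666 genes. That member was PRT6 in both cases (difference of responses 0.32 ± 0.13, edgeR adjusted p = 0.616). The widest gap among the ERF genes was in HRE1, whose response was lower by 0.58 ± 0.35 in log2 in the mutant, a difference of less than 2 SE.

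**Figure D1:**
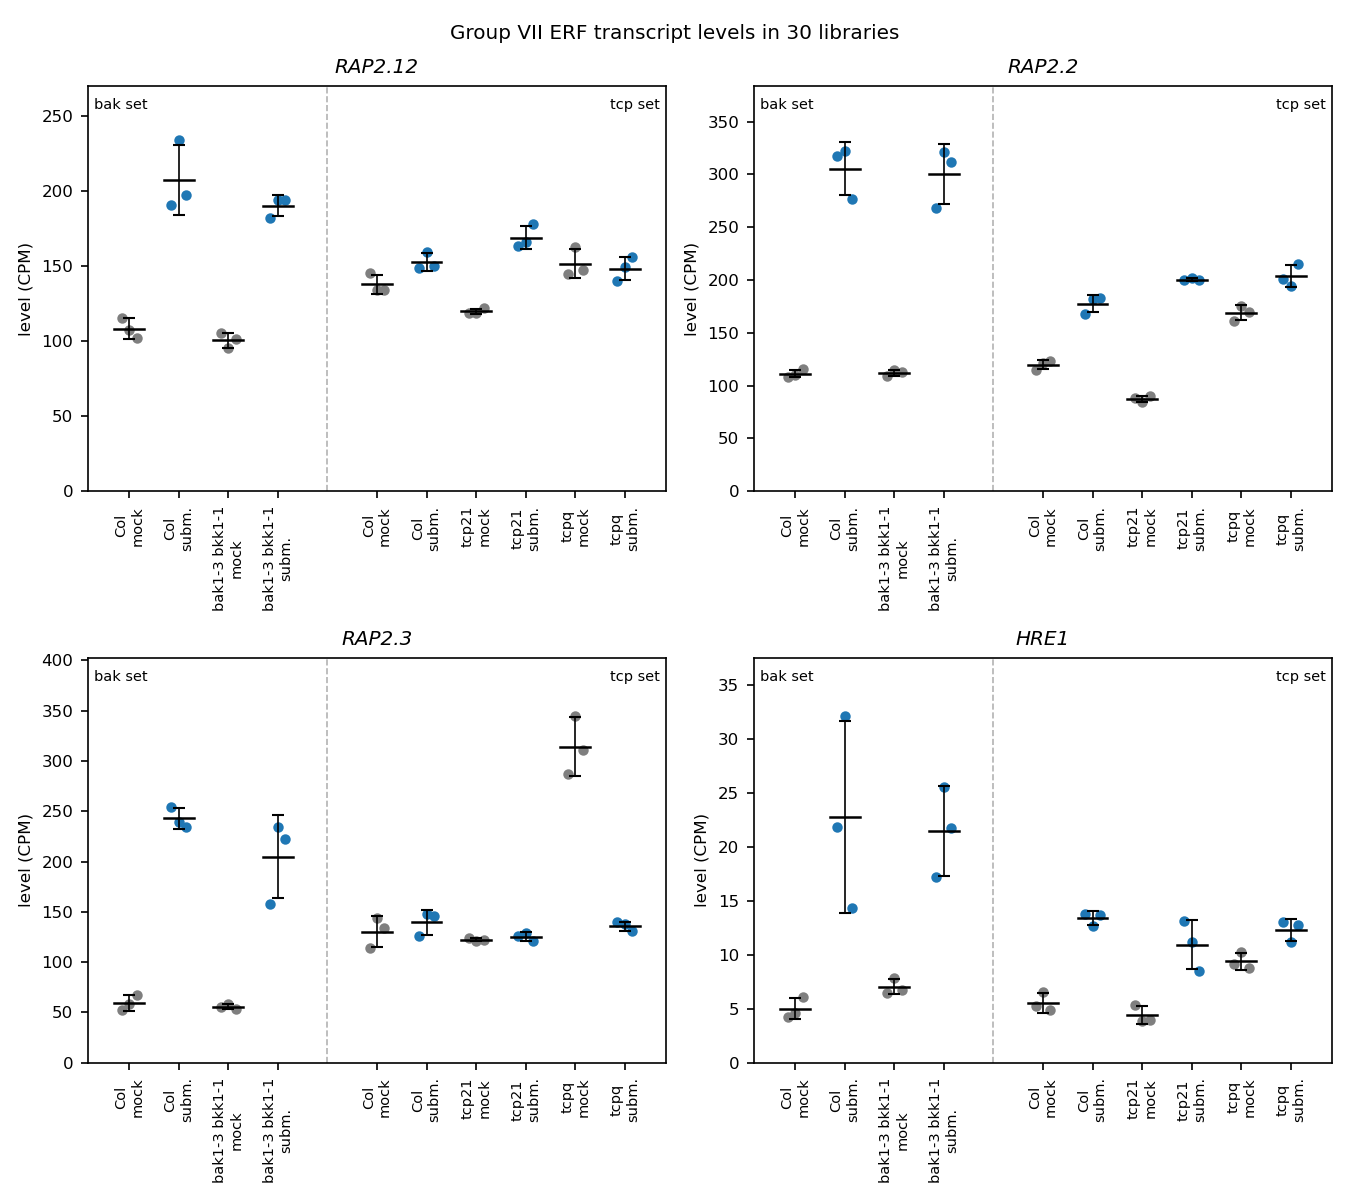
Levels of RAP2.12, RAP2.2, RAP2.3 and HRE1 in CPM (linear axis from 0) in each of the 30 libraries, by genotype and treatment. Points are libraries (grey mock, blue submergence), horizontal bars are means and error bars SD of 3 libraries, and the dashed line parts both sets. RAP2.3 averages 59.3 CPM in Col mock and 243 CPM in submerged Col of the bak set, but in the tcp set it is high in tcpq mock (314 CPM) and between 114 and 148 CPM in every other library.

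Of the ERF genes in Col of the tcp set, RAP2.2 and HRE1 rose under submergence. RAP2.2 was at 115, 122 and 124 CPM in mock and at 168, 182 and 183 CPM under submergence, without overlap (log2 fold change 0.57 ± 0.07, edgeR adjusted p = 2.8e-08). HRE1 was at 5.25, 6.57 and 4.86 CPM in mock and at 13.8, 12.7 and 13.7 CPM under submergence (1.27 ± 0.16, edgeR adjusted p = 1.47e-07). RAP2.12 (0.15 ± 0.07) and RAP2.3 (0.10 ± 0.08) did not pass the threshold, with edgeR adjusted p-values of 0.0764 and 0.324. Without the Col mock library with the conflicting label, RAP2.12 passed it (0.18, edgeR adjusted p = 0.0465).

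RAP2.3 in Col mock of the tcp set was already at 114, 144 and 134 CPM, and at 126, 148 and 146 CPM after submergence. These groups overlapped. Of the 8 members tested, 5 were called, 2 higher and 3 lower, and 50.0% of all 20385 genes tested were called. The members' median log2 fold change was -0.04 and that of all genes 0.04.

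In tcp21, RAP2.2 responded more than in Col. It stood at 88.1, 84.8 and 90.5 CPM in mock, below every Col mock library, and at 199.6, 202 and 199.8 CPM under submergence, above every submerged Col library (1.19 ± 0.07, edgeR adjusted p = 4.02e-15). The submergence response exceeded that of Col by 0.63 ± 0.09 in log2 (edgeR adjusted p = 5.56e-06). RAP2.12 followed the same pattern, from 119, 119 and 122 CPM to 163, 166 and 178 CPM (0.50 ± 0.07), with a response larger than in Col by 0.35 ± 0.10 (edgeR adjusted p = 0.00578).

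HRE1 rose by 1.29 ± 0.16 in tcp21, from 5.40, 3.86 and 3.98 CPM to 13.1, 11.2 and 8.56 CPM, close to its rise in Col. RAP2.3 changed by 0.04 ± 0.08, and its levels of 121 to 129 CPM in both groups overlapped. In tcp21, 6 of 8 members were called, 3 higher and 3 lower, against 48.8% of all genes. For the difference between the tcp21 and Col responses 2 members were called, both positive, against 31.0% of all genes.

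In tcpq, RAP2.3 fell under submergence. Its mock libraries held 287, 345 and 311 CPM, more than any other tcp library, and its submerged libraries 139, 138 and 131 CPM. The groups lay far apart (log2 fold change -1.21 ± 0.08, edgeR adjusted p = 1.5e-13). The response differed from that of Col by -1.31 ± 0.11 (edgeR adjusted p = 3.57e-10).

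Between tcpq and Col the gene differed in mock: RAP2.3 was 2.41-fold higher in tcpq than in Col in mock (1.27 ± 0.08, edgeR adjusted p = 1.93e-13) and did not differ detectably under submergence (-0.04 ± 0.08, edgeR adjusted p = 0.808). The tcpq mock libraries also had the lowest shoot marker sums of the tcp set, and the submerged libraries of the bak set, where RAP2.3 was high as well, had lower sums than their mock libraries. Root marker sums were also lower in the submerged libraries of the bak set, but higher in tcpq mock than in Col mock. The part of tissue makeup in the RAP2.3 levels was not tested.

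Ordered by mean, RAP2.3 in the tcp set ran from tcp21 mock (122 ± 1.5 CPM, SD, n = 3) over tcp21 submergence (125 ± 4.26), Col mock (130.3 ± 15.2), tcpq submergence (136 ± 4.49) and Col submergence (139.6 ± 12.2) to tcpq mock (314 ± 29.3). Each neighbour below tcpq mock overlapped the next in its range of libraries. In the bak set the order was bak1-3 bkk1-1 mock (55.9 ± 2.49), Col mock (59.3 ± 7.59), bak1-3 bkk1-1 submergence (205 ± 41.1) and Col submergence (243 ± 10.2). The mock groups overlapped there, and the lowest library of submerged Col lay just above the highest of the submerged mutant.

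HRE1 in tcpq was at 9.18, 10.3 and 8.75 CPM in mock, above every Col mock library, and at 13.1, 11.2 and 12.7 CPM under submergence. Its rise was 0.39 ± 0.15 (edgeR adjusted p = 0.0282), smaller than in Col by 0.88 ± 0.22 in log2 (difference of responses -0.88, edgeR adjusted p = 0.00242). The rise was lost without library 1 or 3 of tcpq mock or library 1 or 3 of tcpq submergence (edgeR adjusted p up to 0.0991). The overlapping gene P40 moved as well in tcpq, from 449.5 to 211 CPM, and its response differed from Col by -0.76 ± 0.12. Its part in the HRE1 counts was not tested.

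RAP2.2 in tcpq was at 161, 176 and 170.0 CPM in mock and at 201.2, 194.7 and 215.1 CPM under submergence (0.27 ± 0.06, edgeR adjusted p = 0.000634). Its response was smaller than in Col (difference -0.30 ± 0.09, edgeR adjusted p = 0.0125). RAP2.12 stayed near 150 CPM, between 140 and 163 in all 6 tcpq libraries, and its change of -0.03 ± 0.07 did not pass the test. In tcpq, 7 of 8 members were called, 2 higher and 5 lower, against 63.4% of all genes. The difference between the tcpq and Col responses was called for 3 members, all negative, against 34.6% of all genes.

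**Figure D2:**
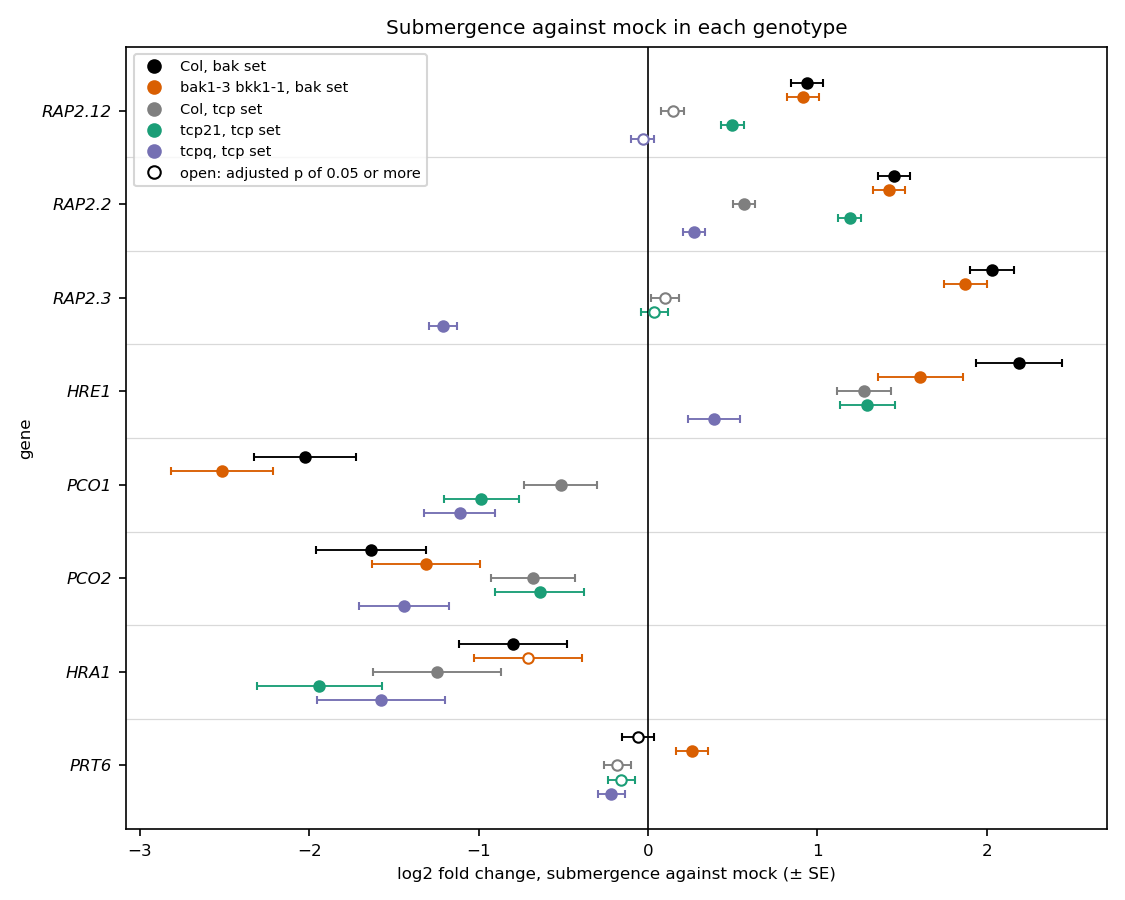
Log2 fold changes of submergence against mock (x axis) for the 8 tested members (y axis) in Col of either set and the 3 mutants, with SE from the edgeR fit. Filled points passed an adjusted p of 0.05 and open points did not. RAP2.2 and HRE1 lie to the right of 0 and PCO1 and PCO2 to the left in all 5 comparisons, while RAP2.3 runs from 2.03 in Col of the bak set to -1.21 in tcpq.

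Summed per kb over the 5 ERF genes, the level in Col of the bak set was 167 ± 5.44 CPM per kb in mock and 479.5 ± 31.3 under submergence (SD, n = 3). In bak1-3 bkk1-1 it was 163 ± 1.64 and 438 ± 53.8. The share of RAP2.12 in the sum was lower under submergence, 22.7% against 34.0% in Col, and that of RAP2.3 higher, 38.9% against 27.1%. The share of RAP2.2 lay between 33.9% and 38.9% in all 12 libraries of the set.

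In Col of the tcp set the sum was 242 ± 10.8 CPM per kb in mock and 295 ± 15.4 under submergence. In tcp21 it was 208 ± 3.42 and 303 ± 2.32. In tcpq alone the mock sum, 419.9 ± 31.5, was above the submerged sum, 303.0 ± 5.98. RAP2.3 held 57.2% of the sum in tcpq mock and 34.4% in submerged tcpq, close to its 36.2% in submerged Col.

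**Figure D3:**
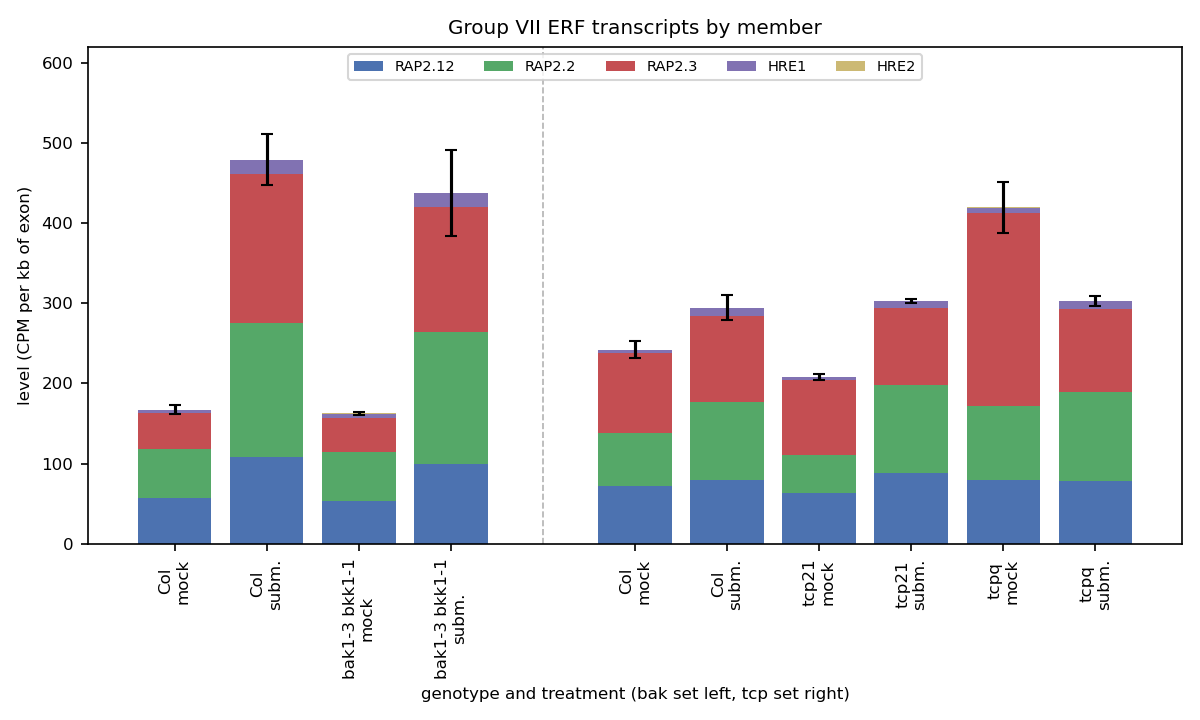
Mean level per kb of exon (y axis, CPM per kb, linear from 0) of each group VII ERF gene, stacked, in the 10 groups (x axis). Error bars are the SD of the summed level over 3 libraries, and the dashed line parts both sets. The sum is 480 CPM per kb in submerged Col of the bak set and 420 in tcpq mock, and the 3 submerged groups of the tcp set lie between 295 and 303, with HRE1 a thin band and HRE2 too low to see.

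Between genotypes of the tcp set in mock, tcp21 had less RAP2.2 (-0.45 ± 0.07, edgeR adjusted p = 1.79e-06) and less RAP2.12 (-0.20 ± 0.07, edgeR adjusted p = 0.015). These 2 of 8 members were called, both lower, where 46.8% of all genes were called. The RAP2.12 call was lost without the Col mock library with the conflicting label (-0.17, edgeR adjusted p = 0.0721). PRT6 gained a call without that library (0.22, edgeR adjusted p = 0.0405), and HRE1 gained one without library 1 of tcp21 mock (-0.50, edgeR adjusted p = 0.0325).

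In mock, tcpq had more RAP2.3, RAP2.2 (0.49 ± 0.07, edgeR adjusted p = 2.66e-07), HRE1 (0.76 ± 0.16, edgeR adjusted p = 0.000285) and PCO1 (0.63 ± 0.20, edgeR adjusted p = 0.0109) than Col. These 4 of 8 members were all higher, against 48.4% of all genes called. P40, which overlaps HRE1, was also higher in tcpq mock (0.61 ± 0.08). PCO1 lost its call without library 1 of tcpq mock (0.54, edgeR adjusted p = 0.0618). The 2 mutants shared these Col libraries, so their differences from Col are not independent of each other.

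Compared directly in mock, tcpq had more of 5 members than tcp21, RAP2.3 by 1.36 ± 0.08, HRE1 by 1.07 ± 0.16, RAP2.2 by 0.94 ± 0.07, PCO1 by 0.67 ± 0.20 and RAP2.12 by 0.34 ± 0.07. Their edgeR adjusted p-values ran from 2.71e-14 to 0.00579, and 52.4% of all genes were called. PCO2 (0.53 ± 0.24), HRA1 (-0.25 ± 0.33) and PRT6 (-0.05 ± 0.08) did not pass.

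Under submergence, RAP2.2 was the only member called for tcp21 against Col (0.17 ± 0.06, edgeR adjusted p = 0.0462), where 26.7% of all genes were called. It was also the only member called for tcpq against Col (0.20 ± 0.06, edgeR adjusted p = 0.0341), against 16.5% of all genes. PCO2 in tcpq (-0.75 ± 0.28, edgeR adjusted p = 0.0624) and PCO1 in tcp21 (-0.51 ± 0.23, edgeR adjusted p = 0.101) had wider gaps to Col than in mock, without passing. Both RAP2.2 calls were lost when library 1 of Col submergence was left out, with edgeR adjusted p-values of 0.201 and 0.176. The tcp21 call was also lost without library 3 of Col submergence or any of the 3 tcp21 libraries, and the tcpq call without library 1 or 3 of tcpq submergence. For tcp21, PCO2 was called without library 2 of tcp21 submergence (-0.82, edgeR adjusted p = 0.0424) and PRT6 without library 2 of Col submergence (0.31, edgeR adjusted p = 0.00522). With all libraries, PRT6 was called there by DESeq2 (0.21, adjusted p = 0.0487) and by edgeR with RLE scaling (0.21, adjusted p = 0.0484).

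For tcpq against tcp21 under submergence, 0 of 8 members were called by edgeR and 1 by DESeq2, where edgeR called 13.5% of all genes. At an unadjusted edgeR p under 0.05 there were 2 members, against 5654 of all 20385 genes. The member called by DESeq2 was RAP2.12, lower in tcpq. Its edgeR log2 value was -0.19 ± 0.07 (adjusted p = 0.0641) and its DESeq2 value -0.20 (adjusted p = 0.0233).

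**Figure D4:**
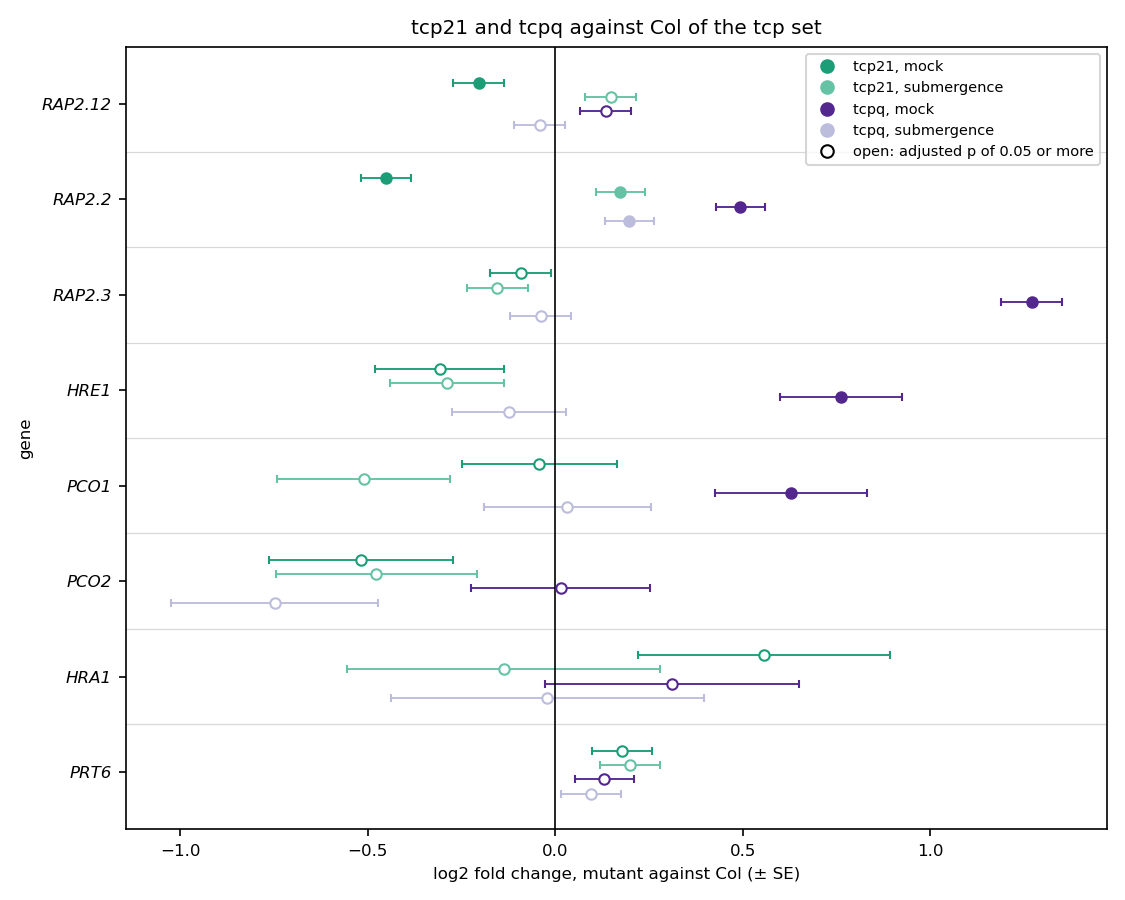
Log2 fold changes of tcp21 and tcpq against Col of the tcp set (x axis) for the 8 tested members (y axis), in mock and under submergence, with SE from the edgeR fit. Filled points passed an adjusted p of 0.05 and open points did not. RAP2.3 stands at 1.27 in tcpq mock and -0.04 in submerged tcpq, and RAP2.2 at -0.45 in tcp21 mock and 0.17 in submerged tcp21.

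The oxygen sensor genes PCO1 and PCO2, known as targets that rise when the ERF proteins accumulate, fell under submergence in all 5 comparisons, Col of either set and each mutant. PCO1 was at 6.61, 7.57 and 5.43 CPM in Col mock of the bak set and at 1.85, 0.984 and 1.97 CPM under submergence. The groups did not overlap (log2 fold change -2.02 ± 0.30, edgeR adjusted p = 1.84e-05). In bak1-3 bkk1-1 it was at 9.25, 8.35 and 9.13 CPM in mock and at 0.894, 2.28 and 1.56 CPM under submergence (-2.51 ± 0.30, edgeR adjusted p = 1.47e-06). These are libraries of 22 to 216 PCO1 counts.

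PCO2 in Col of the bak set was at 4.54, 5.71 and 4.12 CPM in mock and at 2.14, 1.61 and 0.818 CPM under submergence (-1.63 ± 0.33, edgeR adjusted p = 0.000398). In bak1-3 bkk1-1 it fell by 1.31 ± 0.32 (edgeR adjusted p = 0.00203). Both genes fell in both genotypes, without overlap of mock and submerged libraries. Of all genes, 49.4% were called in Col and 52.7% in bak1-3 bkk1-1. The share of all genes without such overlap was not counted.

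The falls in Col of the tcp set were as follows. PCO1 was at 3.47, 3.83 and 3.29 CPM in mock and at 2.29, 2.42 and 2.7 CPM under submergence (-0.52 ± 0.22, edgeR adjusted p = 0.0468). PCO2 was at 3.65, 3.45 and 3.34 CPM in mock and at 2.37, 2.02 and 2.11 CPM under submergence (-0.68 ± 0.25, edgeR adjusted p = 0.0245). The libraries of each gene did not overlap, but the PCO1 call was lost without any of its 6 libraries in turn (edgeR adjusted p up to 0.134) and without the low-count filter (0.0762). The PCO2 call was lost without library 1 of Col mock, the library with the conflicting label, or library 2 or 3 of Col submergence (edgeR adjusted p up to 0.0685).

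In tcpq, PCO1 fell from 6.09, 5.14 and 5.13 CPM to 2.33, 3.28 and 2.02 CPM (-1.11 ± 0.21, edgeR adjusted p = 3.66e-05), and PCO2 from 4.01, 3.46 and 3.07 CPM to 1.23, 1.09 and 1.51 CPM (-1.44 ± 0.27, edgeR adjusted p = 2.57e-05). In tcp21, PCO1 fell by 0.98 ± 0.22 (edgeR adjusted p = 0.000503). PCO2 fell there by 0.64 ± 0.26 (edgeR adjusted p = 0.0451), with overlapping libraries. That call was lost without library 2 or 3 of tcp21 mock or library 1 or 3 of tcp21 submergence (edgeR adjusted p up to 0.188), and the change was -0.99 without library 2 of tcp21 submergence. The difference of the PCO1 response from that in Col was called in neither mutant (edgeR adjusted p = 0.266 for tcp21 and 0.129 for tcpq). Without library 2 of tcpq submergence the tcpq difference was called (-0.82, edgeR adjusted p = 0.0452).

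**Figure D5:**
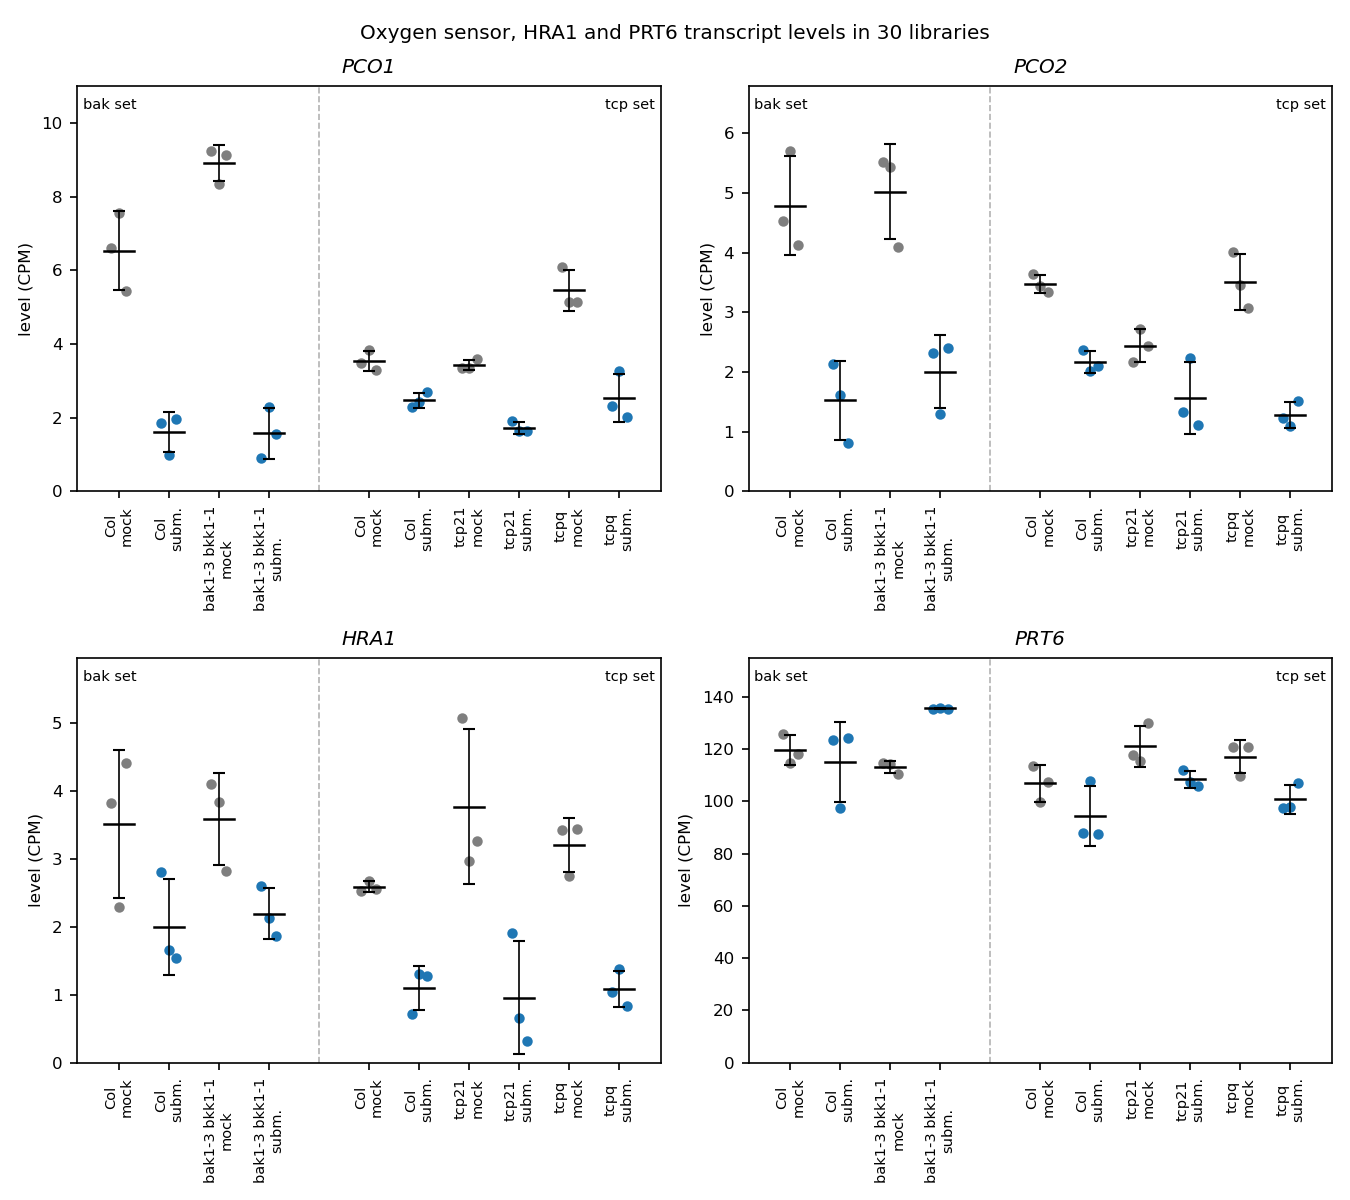
Levels of PCO1, PCO2, HRA1 and PRT6 in CPM (linear axis from 0) in each of the 30 libraries. Points are libraries (grey mock, blue submergence), horizontal bars are means and error bars SD of 3 libraries, and the dashed line parts both sets. PCO1 goes from a mean of 6.53 to 1.60 CPM in Col of the bak set and from 5.45 to 2.54 CPM in tcpq, while PRT6 keeps a mean between 94.3 and 136 CPM.

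Since PCO1 and PCO2 fell together, their promoters are shown, from 250 bases before the annotated start to 30 after it (RefSeq annotation, build TAIR10.1), 5′ to 3′. In PCO1 the capitals mark a match to the hypoxia-responsive promoter element (HRPE), the site bound by group VII ERFs, which lies on the minus strand from base 10 after the start. In PCO2 they mark the anaerobic response element core AAACCA, on the plus strand from base 8 after the start:

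PCO1 (chr5:4898391-4898670, plus strand): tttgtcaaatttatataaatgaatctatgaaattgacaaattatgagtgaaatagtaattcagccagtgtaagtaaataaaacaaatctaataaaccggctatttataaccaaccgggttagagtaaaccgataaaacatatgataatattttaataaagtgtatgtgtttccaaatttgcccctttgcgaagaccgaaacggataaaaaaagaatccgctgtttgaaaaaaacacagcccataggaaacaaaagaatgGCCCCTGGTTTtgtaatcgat
PCO2 (chr5:15974020-15974299, plus strand): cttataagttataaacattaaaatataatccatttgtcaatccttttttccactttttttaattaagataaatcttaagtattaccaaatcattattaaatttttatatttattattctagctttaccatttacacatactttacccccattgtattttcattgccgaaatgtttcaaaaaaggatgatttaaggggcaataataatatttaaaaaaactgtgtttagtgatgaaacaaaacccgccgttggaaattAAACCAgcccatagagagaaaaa

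Windows of 300 bases, 250 before the start and 50 after, were searched on both strands for all 27443 protein-coding genes. The HRPE was searched as an exact pattern, AAACCA followed by 3 bases of C or G and then GC. Variant sites and sites outside the window would be missed. An exact HRPE match was found in 18 windows (0.0656%), and among the 9 members in PCO1 alone. The core AAACCA, which the HRPE contains, was found in 32.0% of windows and in 3 members, RAP2.2, PCO1 and PCO2. The GCC box GCCGCC was found in 2.57% of windows and in 0 members. A match describes these letters and not binding.

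HRA1, a trihelix factor that binds RAP2.12 and restrains it, was at 3.83, 2.3 and 4.42 CPM in Col mock of the bak set and at 2.81, 1.65 and 1.54 CPM under submergence. The groups overlapped, and the change was -0.80 ± 0.32 (edgeR adjusted p = 0.0464). That call was lost without library 1 or 3 of Col mock or library 2 or 3 of Col submergence (edgeR adjusted p up to 0.184). It was also lost without the low-count filter (0.0525) and when the compared groups were fitted alone (0.0793). In bak1-3 bkk1-1 the change was -0.71 ± 0.32 and did not pass (edgeR adjusted p = 0.0719), but passed when the compared groups were fitted alone (0.0491).

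HRA1 in Col of the tcp set was at 2.54, 2.68 and 2.56 CPM in mock and at 0.724, 1.31 and 1.27 CPM under submergence (-1.25 ± 0.38, edgeR adjusted p = 0.00747), a call lost without library 1 of Col submergence (edgeR adjusted p = 0.0529). In tcp21 it was at 5.08, 2.97 and 3.27 CPM in mock and at 1.91, 0.662 and 0.317 CPM under submergence. The groups did not overlap, though 1 submerged library rested on 6 counts (-1.94 ± 0.37, edgeR adjusted p = 7.95e-05). Without library 1 of tcp21 submergence the change was -2.95. In tcpq it fell by 1.58 ± 0.38 (edgeR adjusted p = 0.000639). The difference from the Col response was not called in either mutant, except for tcp21 when library 1 of tcp21 submergence was left out (-1.68, edgeR adjusted p = 0.0144).

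PRT6, the ligase at the end of the pathway, was at 126, 115 and 118 CPM in Col mock of the bak set and at 123, 97.3 and 124 CPM under submergence, with overlap (-0.06 ± 0.09, edgeR adjusted p = 0.642). In bak1-3 bkk1-1 it was at 115, 114 and 111 CPM in mock and at 135, 136 and 135 CPM under submergence (0.26 ± 0.09, edgeR adjusted p = 0.0268). That call was lost without any mock library or without library 2 or 3 of submergence (edgeR adjusted p up to 0.0788). In tcpq the change was -0.22 ± 0.08 (edgeR adjusted p = 0.0195), lost without library 1 or 3 of mock or library 1 or 2 of submergence (edgeR adjusted p up to 0.0726). It was -0.18 ± 0.08 in Col of the tcp set (edgeR adjusted p = 0.0611), which passed without library 2 of Col mock (0.0314) or library 2 of Col submergence (0.00398). With all libraries, this change was called by DESeq2 (-0.21, adjusted p = 0.0371) and by edgeR with RLE scaling (-0.21, adjusted p = 0.0354). PRT6 overlaps the MYB gene MYB3R-5 (AT5G02320) on the opposite strand by 150 of its 6769 exon bases. MYB3R-5 rose in all 5 submergence comparisons, by 0.38 to 1.02 in log2, and its part in the PRT6 counts was not tested.

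The other 3 oxidase genes moved in both directions. PCO5 (AT3G58670) rose in Col of the bak set (0.47 ± 0.12, edgeR adjusted p = 0.0032) and in bak1-3 bkk1-1 (0.50 ± 0.12), and fell in Col of the tcp set (-0.33 ± 0.11, edgeR adjusted p = 0.019). PCO4 (AT2G42670) rose in bak1-3 bkk1-1 (0.35 ± 0.14, edgeR adjusted p = 0.047) and changed by at most 0.26 in log2 elsewhere, without a call. PCO3 (AT1G18490) fell in tcpq (-0.41 ± 0.14, edgeR adjusted p = 0.013) and was not called in the other genotypes. PCO3 overlaps AT1G18486 on the same strand by 234 bases, and the part of that gene in the PCO3 counts was not tested. Per kb, PCO5 was the most abundant of the 5 oxidases in submerged seedlings of Col in the bak set, at 20.3 CPM per kb, against 1.11 for PCO1 and 1.08 for PCO2. In Col mock of that set PCO5 was at 14.7, PCO1 at 4.54 and PCO2 at 3.41 CPM per kb.

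Among 10 further genes of the N-degron pathway and its substrates, 4 rose and 1 fell under submergence in Col of the bak set, with a median log2 fold change of 0.27. These 5 of 10 compare with 49.4% of all genes called. ATE1, an arginyl transferase, rose by 0.57 ± 0.10 and the methionine aminopeptidase gene MAP2A by 0.55 ± 0.11. VRN2, a Polycomb subunit that is degraded through the same cysteine, rose by 0.36 ± 0.11, and MAP2B by 0.28 ± 0.09. In bak1-3 bkk1-1 the same 4 genes rose (ATE1 by 0.68 ± 0.10) and 0 fell. In the tcp set, where 9 of the 10 were tested, 4 fell in Col and 0 rose, among them BIG (-0.47 ± 0.09) and MAP1A (-0.47 ± 0.10). MAP1A fell by 1.22 ± 0.10 in tcpq, where 1 gene rose and 2 fell, and in tcp21 1 rose and 1 fell. All genes were called at 52.7% in bak1-3 bkk1-1, 50.0% in Col of the tcp set, 48.8% in tcp21 and 63.4% in tcpq.

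Of 9 genes for partners of the ERF proteins, 6 rose and 1 fell in Col of the bak set, where 49.4% of all genes were called. ACBP2, whose protein tethers RAP2.12 at the plasma membrane, rose by 1.07 ± 0.11 and the Mediator subunit gene MED25 by 0.55 ± 0.09. MPK3, a stress kinase gene, fell by 1.49 ± 0.12 there and by 0.53 ± 0.13 in Col of the tcp set, but rose by 1.08 ± 0.13 in tcp21 and by 2.13 ± 0.14 in tcpq. Its level in mock was 65.0 CPM in tcp21 and 38.9 CPM in tcpq against 224 in Col. The tests of both differences in response from Col were called (1.61 ± 0.19 and 2.65 ± 0.19, edgeR adjusted p = 4.14e-06 and 6.55e-09). MPK3 overlaps AT3G45645 on the opposite strand by 192 bases, and the part of that gene in the MPK3 counts was not tested. HB1, the hemoglobin gene, was higher in tcpq mock than in Col mock (1.73 ± 0.17) and fell under submergence in tcpq (-1.27 ± 0.16). Counts of partner genes that rose and fell were 6 and 1 in bak1-3 bkk1-1, 1 and 2 in Col of the tcp set, 1 and 3 in tcp21 and 1 and 1 in tcpq. The shares of all genes called were 52.7%, 50.0%, 48.8% and 63.4% in the same order.

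Other genes known to be induced by low oxygen moved in both directions. Of 35 listed, the bak set allowed a test of 30 and the tcp set of 32. In Col of the bak set 10 rose and 12 fell, with a median log2 fold change of -0.41, and in bak1-3 bkk1-1 9 rose and 12 fell. The tcp set had 12 that rose and 7 that fell in Col, in tcp21 15 and 6, and in tcpq 15 and 5, with medians of 0.22, 0.10 and 0.31. Of all genes, 49.4% were called in Col of the bak set, 52.7% in bak1-3 bkk1-1, 50.0% in Col of the tcp set, 48.8% in tcp21 and 63.4% in tcpq. The medians of all genes were between -0.02 and 0.04 in these comparisons.

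Submerged Col of the bak set had more of several of them: the ethylene receptor gene ETR2 rose by 2.13 ± 0.11, the uridine kinase gene UKL3 by 1.61 ± 0.13 and the pyruvate decarboxylase gene PDC2 by 1.04 ± 0.10, while the desaturase gene SAD6 fell by 4.23 ± 0.27. In bak1-3 bkk1-1 ETR2 rose by 2.00 ± 0.11 and SAD6 fell by 3.35 ± 0.25. PDC2 rose by 1.41 ± 0.13 and PP2-A13 by 2.02 ± 0.19 in Col of the tcp set. PP2-A13 rose by 4.37 ± 0.21 and SRO5 by 4.43 ± 0.29 in tcp21, and SRO5 rose by 5.67 ± 0.29 in tcpq. These rises are relative to mock of the same mutant. Over the tested genes of this list, log2 differences of tcp21 from Col ran from -5.75 to 1.72 in mock and from -1.56 to 0.87 under submergence. Those of tcpq ran from -5.92 to 2.61 in mock and from -0.74 to 1.585 under submergence. On the opposite strand, SRO5 overlaps AT5G62530 by 905 bases and PP2-A13 overlaps AT3G61070 by 489 bases. As the strand setting is not given, counts of SRO5 and PP2-A13 are uncertain. ETR2 fell by 2.92 ± 0.13 in tcpq, the genotype in which RAP2.3 fell, and was higher there in mock than in Col (2.61 ± 0.12), as RAP2.3 was.

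ADH1 and PDC1, classic genes of ethanol fermentation, were named after their values were seen. ADH1 averaged 16.7 CPM in mock and 28.9 under submergence in Col of the bak set (0.78 ± 0.20, edgeR adjusted p = 0.00524) and 2.15 and 5.97 CPM in Col of the tcp set (1.48 ± 0.28, edgeR adjusted p = 0.000109). PDC1 fell from 7.79 to 2.65 CPM in Col of the bak set (-1.57 ± 0.28, edgeR adjusted p = 0.000157). Its change in Col of the tcp set was 0.44 ± 0.29, without a call (edgeR adjusted p = 0.218).

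For each member, the genes most like it were those with the highest lower value of Pearson's r of log2 CPM over the 12 and the 18 libraries, among 20069 genes, a description in which libraries of a group share its mean. Among the genes most like RAP2.3 were AT2G05510 (r = 0.967 over 12 libraries and 0.96 over 18) and AT5G50335 (0.953 and 0.939). RAP2.2 was closest to GAT1_2.1 (0.985 and 0.983), RMA1 and AT1G33790. RAP2.12 was closest to YSL7 (0.964 and 0.929), AT3G60980 and CRY2, and HRE1 to ARL (0.961 and 0.959), PKS1 and AT4G28240.

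For the sensor, inhibitor and ligase genes the nearest were as follows. PCO1 was nearest to AT5G28500 (0.921 in both sets), EGY1 and AT1G10900, and PCO2 to AT1G22430 (0.886 and 0.882), CRK30 and AT2G15292. HRA1 was nearest to AT5G50020 (0.861 and 0.899), AT3G17640 and PDF2. PRT6 was nearest to MBD9 (0.915 and 0.933), AT1G02080 and AT2G36810.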

How the data were processed

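The values are raw read counts per gene in 2 deposited tables of 32833 genes, 1 per set. Reads were trimmed with fastp 0.23.1 and aligned with STAR 2.7.9a to TAIR10, per the submitters' processing notes. Which tool counted the reads, and with which strand setting, is not given in the sources used here.

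Each table was fitted alone in edgeR 4.0.16 (R 4.3.3) with all its groups: filterByExpr (20666 genes kept in the bak set, 20385 in the tcp set), TMM scaling, robust quasi-likelihood F tests and Benjamini-Hochberg adjustment over all genes, called at 0.05. SE is the absolute log2 fold change over the square root of F. CPM used TMM-scaled library sizes computed from the deposited counts, and CPM per kb the union exon length of TAIR10.1. Steps were tested on simulated data. Alternatives were DESeq2 1.42.0, RLE scaling, no filter, a replicate block, fits of the compared groups alone and leaving out each library.

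Members, lists and tests were chosen with earlier results of these data known. All members and the other PCO genes are named, up to 4 called genes with the smallest adjusted p per other list and comparison, and the 3 most alike genes per member, of which 1 is not reported here. Libraries with the same replicate number in their titles did not deviate together, so no pairing was used. The column names of some libraries carry other numbers, and pairing by those was not tested.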

Additional observations from a re-analysis of the deposited data

Results flagged for a closer look

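The submergence response differed between a mutant and Col of the tcp set, by the edgeR test of the difference itself, in 5 cases among 16 tested for tcp21 and tcpq. Of all genes, 31.0% were called for this difference in tcp21 and 34.6% in tcpq, so the share of members called is near that of all genes. RAP2.12 and RAP2.2 responded more in tcp21 than in Col, with differences of 0.35 and 0.63 in log2 fold change (edgeR adjusted p = 0.00578 and 5.56e-06). RAP2.3, HRE1 and RAP2.2 responded less, or in the other direction, in tcpq, with differences of -1.31, -0.88 and -0.30 (edgeR adjusted p = 3.57e-10, 0.00242 and 0.0125). In all 5 cases the mock levels of the mutant and Col differed more than the submerged levels did: by -0.20 against 0.15 for RAP2.12 and -0.45 against 0.17 for RAP2.2 in tcp21, and in tcpq by 1.27 against -0.04 for RAP2.3, 0.76 against -0.12 for HRE1 and 0.49 against 0.20 for RAP2.2. Both mutants were compared with the same Col libraries.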

How the results depend on the processing

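Of 128 member comparisons, 50 were called. Without 1 library, 12 of these lost the call and 8 others gained one. Among the alternatives run, no change called in the main or the alternative fit reversed its direction. Directions of changes called in neither fit were not compared. DESeq2 and RLE scaling each added 3 calls and lost 0, the fit without the low-count filter lost 5, and the fit of the compared groups alone lost 3 and gained 2. The 5 differences in response between a tcp mutant and Col kept their calls under each alternative.

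Replicate numbers of the titles did not pair the libraries (correlations of deviations -0.0927 to 0.0711 in the bak set and -0.0761 to 0.0681 in the tcp set). With the replicate block, PCO1 in Col of the tcp set (-0.51, edgeR adjusted p = 0.0555) and PCO2 in tcp21 (-0.64, 0.0506) lost their calls, and 1 gene instead of 8 was called for the difference in response of bak1-3 bkk1-1.

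For bak1-3 bkk1-1 against Col in mock, 177 genes were called, 335 by DESeq2, 278 with the groups alone and 117 to 189 without 1 library. Under submergence 285 were called, 690 by DESeq2 and 160 to 279 without 1 library. For the difference in response 8 were called, 99 by DESeq2 and 2 to 21 without 1 library.

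Members called for submerged tcp21 against Col numbered 1, 2 with RLE or DESeq2, 0 without the filter and 0 to 2 without 1 library, and genes 5440, 3272 to 5522 without 1 library. For submerged tcpq against Col it was 1 member, 0 without the filter or with the groups alone, and 0 to 1 without 1 library. For submerged tcpq against tcp21 it was 0 members, 1 with RLE, DESeq2 or the groups alone, and 2756 genes, 1659 to 2002 without 1 library. For submergence in Col of the tcp set 5 members were called, 3 to 5 without 1 library. The cause of these shifts was not tested. A shorter core of the HRPE was found in 3 members instead of 1. PCO1, PCO2 and HRA1 rest on few counts, which limits what their tests can show, and HRE2 had too few to be tested.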

Other observations

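Pearson's r of log2 CPM between members is given as a description, over libraries that share group means. RAP2.2 and RAP2.3 had r = 0.992 over the 12 libraries of the bak set and 0.23 over the 18 of the tcp set. RAP2.3 and PCO1 had -0.91 and 0.699, a change of sign. HRE1 and RAP2.2 had 0.961 and 0.916, and PCO1 and PCO2 0.792 and 0.714.

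The 17 genes other than PCO1 with an HRPE match near their start, of which 15 were tested, moved in both directions. Under submergence 4 were higher and 4 lower in Col of the bak set, where 49.4% of all genes were called. In bak1-3 bkk1-1 3 were higher and 7 lower, against 52.7% of all genes. In Col of the tcp set 7 were higher and 2 lower, against 50.0% of all genes, in tcp21 4 and 3, against 48.8%, and in tcpq 5 and 5, against 63.4%.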
